A study of Homo sapiens with 8 samples.

Results

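The expressed genes of human chromosome 18 were read as a set across 4 tumour cell lines, with the short and the long arm side by side. Members were chosen by their level, apart from genes left out by name. A gene entered when its probe set named 1 gene on chromosome 18 and its mean over all 8 arrays was at least 7.5 on the log2 scale of the deposited values. The names left out were TYMS, SMAD4, SMAD7, BCL2, PMAIP1, DSG2, DSC2, CDH2, CDH19, GATA6, NDUFV2 and the SNORA and SNORD genes, so no arm median below holds them. For a gene with several probe sets the one with the highest mean stood for it, which applied to 9 members. Of 264 chromosome 18 genes named on the array, 158 entered, 42 on the short arm and 116 on the long arm, while 93 lay below the cutoff and 13 were left out by name, 12 of which reached it. The members comprised 150 protein-coding genes, 4 long non-coding RNA genes, 2 pseudogenes, 1 microRNA gene and 1 other non-coding RNA gene. Their means ran from 7.60 to 13.86 with a median of 9.92, 10.31 on the short arm and 9.82 on the long arm. Just outside the cutoff lay LINC00526, a non-coding RNA gene of the short arm, at 7.46 and DSEL, a gene of dermatan sulfate synthesis on the long arm, at 7.498. Just inside lay LDLRAD4, a membrane protein that dampens TGF-beta signalling, at 7.60 and TTR, the thyroid hormone carrier transthyretin, at 7.63.

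A cell that gains or loses a chromosome arm gains or loses a copy of every gene on it, and on average the transcripts of those genes follow the copy number in the same direction, gene by gene with much scatter. Loss of the long arm of chromosome 18 is among the recurrent losses of colorectal tumours, and the arm carries genes of the TGF-beta pathway such as SMAD2. Transcript arrays do not measure copy number, so the arm medians below are a readout of transcript level only, and their relation to gene dosage was not tested.

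The arrays were Affymetrix Human Gene 1.0 ST arrays, which summarise many short probes per gene into probe sets, and each carried RNA of 1 sorted population of 1 established human line. Per the sample labels, the 4 lines are COLO741, HCT116, HT29 and SW620, each described as colon carcinoma, and each line gave 1 array of cells sorted as ABCB5-negative and 1 of cells sorted as ABCB5-positive, where ABCB5 is a drug transporter of the cell surface. All lines were grown in RPMI medium with serum and antibiotics, and no treatment other than the sort is named. The series' design text has SW480 in the place of SW620, and the name on the samples was followed. No label says that both arrays of a line come from separate cultures, so the spread within a line is that between 2 sorted populations, and the p-values measure that spread, part of which may be technical.

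The arrays lay on nearly 1 scale, with array medians of 8.03 to 8.10 over 33297 probe sets. As a measure of background, 95% of 357 olfactory receptor probe sets had a mean below 7.51; every member lay above that level in its mean, and 17 members lay below it on at least 1 array. The tissue label held unevenly. HT29 had 0 of 11 measured markers of intestinal epithelium below background on both arrays, SW620 and HCT116 had 4 each (CDH17, GPA33, KRT20 and CEACAM5), and COLO741 had 7, including EPCAM, CDH1 and VIL1. Conversely all 8 measured melanocyte markers were above background on both COLO741 arrays, with a median level of 12.39 against 6.70 to 6.99 in the other lines. Of the 8, SW620 and HT29 each had 2 above background on both arrays, SOX10 and MC1R, and HCT116 had 4. MC1R did not mark COLO741, at 8.17 and 8.40 against 8.67 and 8.81 in SW620. The label of colon carcinoma thus goes against the markers in COLO741, and the arm values are given below with and without this line. In such bulk RNA, fewer cells of a type and less RNA per cell cannot be told apart. The transcript of ABCB5 was 9.42 on the COLO741 array labelled ABCB5-negative and 8.14 on the one labelled ABCB5-positive, opposite to the labels. It was 5.24 to 5.69 on the arrays of the other lines, all below background. The labels name a sort and not a transcript level.

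The range of line means, highest minus lowest line, separates the members most plainly, and the promoters of its extremes are shown here so that their letters can be set beside the levels that follow. SERPINB5 and PSTPIP2 had the widest ranges as measured, 6.32 and 5.55 log2 units, with their lowest lines below background, and CELF4 and NAPG the narrowest among genes matched to a promoter, 0.12 and 0.21. Each window runs from 250 bases before the gene's start to 50 after it, 5′ to 3′ on the gene's strand, from RefSeq on GRCh38.p14, and capitals mark CG dinucleotides, the sites of DNA methylation. SERPINB5 is on the plus strand at chr18:63476708-63477007, PSTPIP2 on the minus strand at chr18:46072211-46072510, CELF4 on the minus strand at chr18:37485743-37486042 and NAPG on the plus strand at chr18:10525777-10526076.
SERPINB5: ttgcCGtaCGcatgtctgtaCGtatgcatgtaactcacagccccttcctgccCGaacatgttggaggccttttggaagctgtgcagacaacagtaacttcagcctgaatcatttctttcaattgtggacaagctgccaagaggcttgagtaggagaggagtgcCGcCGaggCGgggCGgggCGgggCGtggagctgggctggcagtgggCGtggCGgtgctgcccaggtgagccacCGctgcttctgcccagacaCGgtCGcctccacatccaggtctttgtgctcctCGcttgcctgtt
PSTPIP2: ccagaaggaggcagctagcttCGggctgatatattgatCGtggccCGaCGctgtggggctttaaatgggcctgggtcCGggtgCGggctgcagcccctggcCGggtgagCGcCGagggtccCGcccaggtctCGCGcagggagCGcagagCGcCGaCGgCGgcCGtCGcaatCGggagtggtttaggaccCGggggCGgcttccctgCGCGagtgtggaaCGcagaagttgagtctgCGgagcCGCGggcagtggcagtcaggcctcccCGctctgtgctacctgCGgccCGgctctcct
CELF4: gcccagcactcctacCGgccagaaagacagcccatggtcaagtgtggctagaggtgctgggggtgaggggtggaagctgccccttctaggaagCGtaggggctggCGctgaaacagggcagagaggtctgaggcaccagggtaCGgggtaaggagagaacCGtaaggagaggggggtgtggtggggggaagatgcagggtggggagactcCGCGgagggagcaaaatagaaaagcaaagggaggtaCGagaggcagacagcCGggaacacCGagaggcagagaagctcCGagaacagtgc
NAPG: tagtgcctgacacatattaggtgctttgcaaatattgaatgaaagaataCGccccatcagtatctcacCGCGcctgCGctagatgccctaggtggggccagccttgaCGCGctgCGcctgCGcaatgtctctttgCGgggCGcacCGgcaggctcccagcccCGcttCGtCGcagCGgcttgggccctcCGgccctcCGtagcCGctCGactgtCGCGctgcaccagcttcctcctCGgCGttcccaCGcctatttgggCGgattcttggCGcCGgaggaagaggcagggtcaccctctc
The SERPINB5 window held 16 CG, more than 33.3% of the promoters of protein-coding genes on the array, and the PSTPIP2 window held 31, more than 70.6%. The steady genes were likewise apart from each other, with 11 CG in CELF4 and 27 in NAPG. CG content therefore did not sort these 4 genes by how much their level varied. A promoter entry was found for 137 members, with a median of 29 CG against 23 over 13770 protein-coding genes on the array. The 21 matched members whose line means lay over 2 log2 units apart had a median of 26 CG, and the other 116 had 29.5. The letters TATAAA, searched on both strands, stood in 0 of 39 short arm and 6 of 98 long arm windows, 4.38% of members against 8.99% of protein-coding genes on the array and 12.0% of all 27305 promoters of that length, and none of the windows printed here held them. A match of letters describes the window and is no evidence of use.

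Across the long arm, SW620 lay lowest and HCT116 highest. The median difference of the 116 long arm members between a line and the mean of the other 3 was -0.37 in SW620, 1.29-fold lower, with 94 members below 0 and 22 above. In HCT116 the long arm median was 0.23, 1.18-fold higher, with 82 members above 0 and 34 below. The long arm medians of COLO741 and HT29 were nearer to 0, at 0.09 and -0.08. Both sorted populations gave the same order at its ends: the SW620 median was -0.45 on the ABCB5-negative array and -0.31 on the ABCB5-positive array, and the HCT116 medians were 0.26 and 0.25. In COLO741 the same 2 arrays read 0.15 and 0.04, and in HT29 they read -0.13 and -0.09. Each of these differences sets 1 line against the mean of the others, so they share arrays and sum to 0 gene by gene, and a low value in 1 line raises the others. Without COLO741 the long arm medians were -0.36 in SW620, 0.35 in HCT116 and 0.02 in HT29, so the sign of HT29 rested on COLO741.

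The short arm ordered the lines differently. COLO741 and HT29 had short arm medians of 0.20 and 0.17, and SW620 and HCT116 had medians of -0.15 and -0.16, over 42 members. The single arrays kept these signs, at 0.15 and 0.17 in COLO741, -0.20 and -0.14 in SW620, 0.15 and 0.16 in HT29, and -0.13 and -0.17 in HCT116. HCT116 thus stood with SW620 on the short arm and at the opposite end on the long arm. Short arm minus long arm was -0.39 in HCT116, with -0.39 and -0.42 on its 2 arrays. It was 0.25 in HT29 and 0.22 in SW620, and both arrays of each line had that sign. With a level cutoff of 8.5 the HT29 difference was 0.46, and its long arm median -0.25 rather than -0.08. In COLO741 it was 0.11, but 0.01 on the ABCB5-negative array and 0.13 on the ABCB5-positive one, so the arms of COLO741 differed by no more than its arrays did. In HT29 the sign rests on the median: the means over members gave short arm minus long arm as -0.10, and the mean over its short arm members was -0.11. Without COLO741 the SW620 short arm median was -0.09, and the difference between the arms was -0.46 in HCT116, 0.27 in SW620 and 0.20 in HT29.

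**Figure D1:**
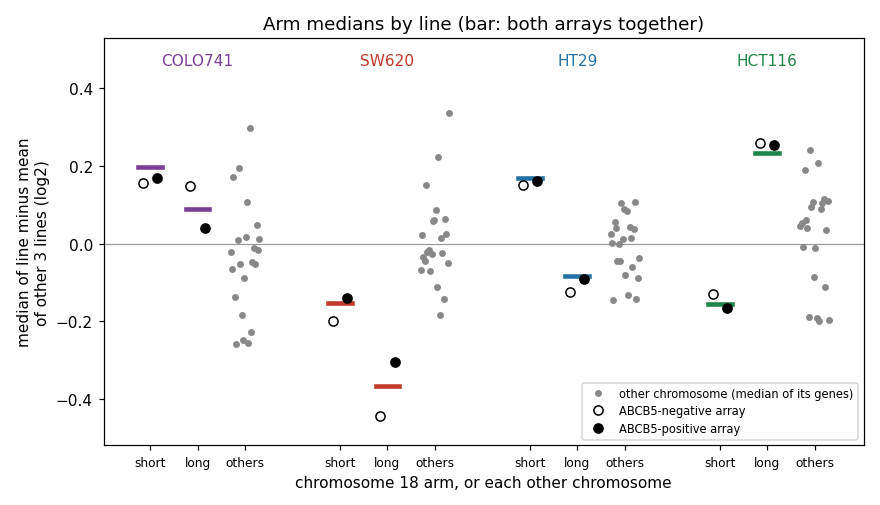
Median log2 difference between each line and the mean of the other 3, for the short arm and long arm members and for every other chromosome (grey points); bars use both arrays, open and filled circles are the ABCB5-negative and ABCB5-positive arrays. The SW620 long arm lies below all 22 other chromosomes of that line, which were taken whole and not by arm. The HCT116 arms lie on opposite sides of 0.

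Genes elsewhere at the same cutoff moved little as a whole, with medians between -0.04 and 0.04 over 12867 genes in the 4 lines. Taken chromosome by chromosome they moved more, as the plot of arm medians shows. In SW620 the medians of the 22 other chromosomes ran from -0.18 to 0.34, so 0 of them lay below the long arm and 1 lay below the short arm. In HCT116 they ran from -0.20 to 0.24, with 21 of 22 below the long arm and 4 below the short arm. In HT29 all 22 lay below the short arm median, and 4 lay below the long arm median. In COLO741 the range was -0.26 to 0.30, with 21 below the short arm and 18 below the long arm. These ranks set single arms of 42 and 116 members against whole chromosomes of 146 to 1314 genes. No other chromosome was split by arm, so how far single arms elsewhere lay from 0 was not tested.

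Lines compared directly gave the same picture without the shared mean. The long arm was 0.47 lower in SW620 than in HCT116, 1.38-fold, with 100 of 116 members lower, and the 2 sorted populations gave -0.54 and -0.48. SW620 minus HT29 was -0.19 over the long arm with 79 members lower, and HT29 minus HCT116 was -0.26 with 79 lower. COLO741 minus SW620 was 0.35 with 92 members higher, and COLO741 minus HCT116 was -0.11 with 64 lower. On the short arm, lines fell into a pair of levels: COLO741 minus HT29 was 0.00 and SW620 minus HCT116 was 0.02, whereas the other line pairs differed by 0.18 to 0.22 in size. The same medians over the genes of other chromosomes lay between -0.069 and -0.015.

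Gene by gene, the tests of limma across all 16910 genes tested put most members past an adjusted p of 0.05. The F test across the 4 lines called 103 of 116 long arm members (88.8%) and 33 of 42 short arm members (78.6%), against 67.2% of all genes tested and 76.0% of genes of other chromosomes at the cutoff. In SW620, 75 long arm members were called lower (64.7%; all genes 22.9%) and 12 higher (10.3%; all genes 22.1%). In HCT116, 57 long arm members were called higher (49.1%; all genes 21.7%) and 17 lower (14.7%; all genes 20.5%). HT29 had 43 long arm members called lower (37.1%; all genes 23.2%) and 24 higher (20.7%; all genes 19.7%). COLO741 had 40 higher (34.5%; all genes 23.7%) and 22 lower (19.0%; all genes 26.0%). These calls depend on single arrays: without the ABCB5-negative array of SW620, 50 long arm members were called in that line rather than 87, and without either HCT116 array 41 or 43 were called rather than 74. The direction held in those settings, with 44 of the 50 lower in SW620 and 34 of the 41 or 43 higher in HCT116; a line left with 1 array is assumed there to vary like the others. Without COLO741, SW620 had 70 called lower and 13 higher, and HCT116 65 higher and 15 lower.

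On the short arm COLO741 had 16 of 42 members called higher (38.1%; all genes 23.7%) and 8 lower (19.0%; all genes 26.0%). HT29 also had 16 called higher (38.1%; all genes 19.7%), and its 9 called lower (21.4%) were near the share of all genes, 23.2%. SW620 had 13 called lower (31.0%; all genes 22.9%) and 5 higher (11.9%; all genes 22.1%), and HCT116 had 14 lower (33.3%; all genes 20.5%) and 7 higher (16.7%; all genes 21.7%). Without either array of SW620 its 18 short arm calls became 11 or 10, and without either array of HT29 its 25 became 16 or 14. When 1 line is left out, the mean of 5 members can fall below the cutoff. They are EPB41L3 and LAMA1 on the short arm and TTR, LIPG and SERPINB5 on the long arm. The medians were therefore also taken over the other 153 members. There the SW620 and HCT116 long arm medians moved by less than their arrays differed.

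**Figure D2:**
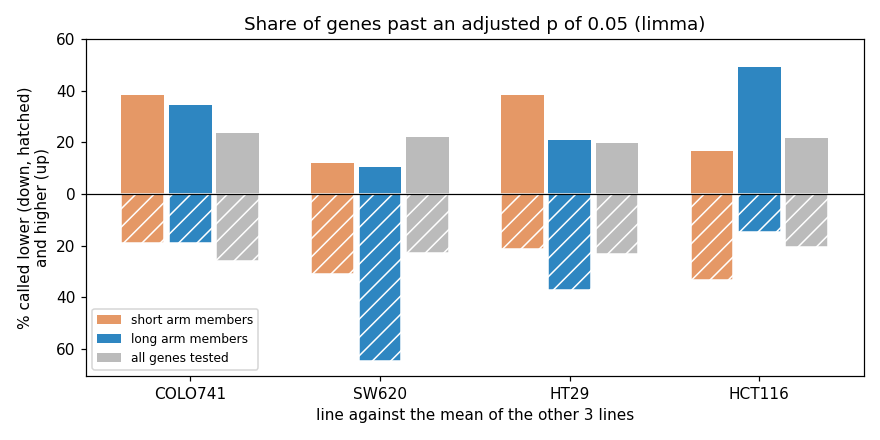
Percent of genes past an adjusted p of 0.05 in each line against the mean of the other 3, higher above 0 and lower (hatched) below 0, for short arm members (n = 42), long arm members (n = 116) and all 16910 genes tested. SW620 shows 64.7% of long arm members lower and HCT116 shows 49.1% higher, against 22.9% and 21.7% of all genes.

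Along the chromosome the differences were not of 1 size. The members were cut, in chromosome order, into stretches of 10, with the last stretch of each arm longer. In SW620 the median was below 0 in every short arm stretch and in 10 of 11 long arm stretches, from -0.71 in the 10 genes from TTC39C to RNF138 to 0.05 in the 10 next to the centromere, ROCK1 to NPC1. At the far end of the arm, the 16 genes from PTGR3 to PARD6G had a SW620 median of -0.46, and 12 of them were called lower. HCT116 had its highest stretch from SKA1, a kinetochore-microtubule gene, to TXNL1, a thioredoxin-like gene, at 0.60 with 7 of 10 called higher. The same 10 genes were all below 0 in SW620, 8 of them called. Over all genes tested 22.9% were called lower in SW620 and 21.7% higher in HCT116, and over the long arm 64.7% and 49.1%.

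HT29 and COLO741 changed sign within the long arm. In HT29 the 10 genes next to the centromere had a median of -0.55, with -0.58 and -0.56 on its arrays, and 8 were called lower. Among them were ESCO1, a cohesin acetyltransferase, at -0.89, and NPC1, which exports cholesterol from lysosomes, at -0.70. The NPC1 value rests on COLO741, whose line mean was 13.01. HT29 at 11.16 was level with SW620 at 11.18 and near HCT116 at 11.36. In COLO741 the median of those 10 genes was 0.47, and 7 were called higher. The stretch from ZBTB7C to CXXC1 read the other way, with 0.51 in HT29 and -0.22 in COLO741. Dividing the arm between SMAD2 and ZBTB7C, a boundary chosen after the values were seen, the 50 genes nearer the centromere had medians of 0.47 in COLO741, -0.34 in HT29, -0.35 in SW620 and 0.17 in HCT116. The 66 genes beyond it had medians of -0.01, 0.04, -0.38 and 0.29 in the same order. SW620 was thus low in both parts, while the pooled medians of COLO741 and HT29 were apart from 0 near the centromere and close to it beyond. The pooled far part hides stretches of mixed sign. Their medians ran from -0.28 (SKA1 to TXNL1) to 0.51 in HT29 and from -0.22 to 0.07 in COLO741. Nor was the near part uniform in COLO741. Its last stretch, EPG5 to SMAD2, had a COLO741 median of -0.06, with 5 genes above 0 and 5 below. Set against single lines, the near part of HT29 was 0.46 lower than that of HCT116 (36 of 50 members lower), whereas SW620 minus HT29 was -0.08 there, with 27 of 50 lower. Beyond SMAD2, SW620 minus HT29 was -0.26, with 52 of 66 lower. In that near part 30 of 50 were called higher in COLO741 and 28 of 50 lower in HT29. In the far part of 66 genes the calls were 10 higher and 20 lower in COLO741 and 19 higher and 15 lower in HT29. These counts and those of the stretches read against all genes tested. There 23.7% were called higher and 26.0% lower in COLO741, and 19.7% higher and 23.2% lower in HT29. The 15 of 66 called lower in HT29 were near that share.

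**Figure D3:**
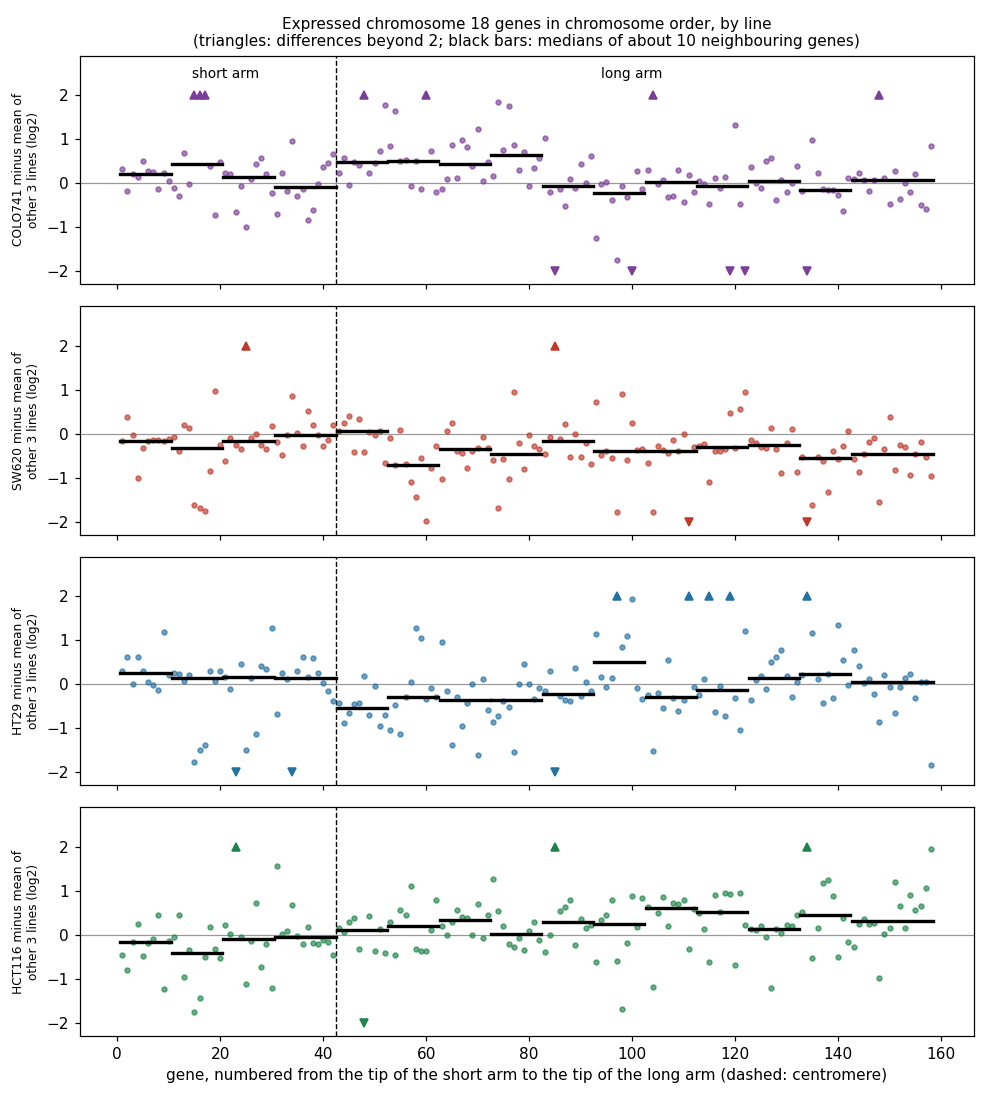
Log2 difference of each of the 158 members from the mean of the other 3 lines, in chromosome order, 1 panel per line; points are genes, triangles mark differences beyond 2 in size, black bars are medians of stretches of 10 or more neighbouring genes and the dashed line is the centromere. Bars of SW620 lie below 0 along nearly the whole chromosome (-0.71 to 0.05), whereas those of HT29 drop to -0.55 just past the centromere and rise to 0.51 within the long arm.

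The members were then read by role, in 8 lists drawn from general knowledge of the genes, which leave 29 members unlisted. Each count of calls in a list below reads against the shares over all genes tested: 67.2% for the F test (76.0% of genes of other chromosomes at the cutoff), 22.9% lower in SW620, 21.7% higher in HCT116, and 19.7% higher and 23.2% lower in HT29. It also reads against the long arm as a whole, where 64.7% were called lower in SW620 and 49.1% higher in HCT116. The median range of line means was smallest for ubiquitin, proteasome and protein quality, 0.69 over 16 members. In SW620 the median was below 0 in every list, from -0.39 in chromatin and transcription to -0.08 in cell division and centrosome.

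Of adhesion, matrix and cytoskeleton 7 of 21 listed genes were members, with a median range of 2.13. EPB41L3 and LAMA1 entered the set through COLO741 alone, so that their height there follows from the choice of members and counts over the list support nothing; 5 of the 7 were called higher in COLO741 (all genes 23.7%) and 1 lower. EPB41L3, which ties membrane proteins to the cytoskeleton, was 11.56 and 11.44 on the ABCB5-negative and ABCB5-positive arrays of COLO741, and 5.98 and 6.85 in SW620, 6.39 and 6.21 in HT29 and 6.24 and 6.38 in HCT116. Only the COLO741 arrays were above background. LAMA1, a laminin chain of the basement membrane, was 11.26 and 11.50 in COLO741 and 6.64 to 6.87 on the arrays of the other lines, all below background. MBP, the myelin basic protein gene, was 12.08 and 11.92 in COLO741 and 8.12 to 8.84 elsewhere (difference 3.39 ± 0.11, log2 with SE, limma adjusted p = 2.19e-06). In these 3 genes COLO741 overlapped no other line. The other members called higher in COLO741 were FHOD3, a formin that acts on actin, at 0.87, and GALNT1, at 1.23, which starts mucin-type glycosylation and is no adhesion or matrix gene itself. MTCL1, which crosslinks microtubules, was the member called lower in COLO741 (-0.72) and was highest in SW620, at 10.05 and 9.64 against 8.44 to 9.18 elsewhere (0.98 ± 0.13, limma adjusted p = 1.21e-03). EMILIN2, a glycoprotein of elastic matrix, varied least in the list, with 8.72 and 8.94 in HCT116 against 8.22 to 8.56 in the others. Of the 8 melanocyte markers given above the median level was also highest in COLO741, and their part in these differences was not tested.

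The signalling list had 12 of 21 listed genes expressed, 11 past the F test. PSTPIP2, an F-BAR protein that shapes membrane at actin structures, split the lines in pairs: 10.65 and 10.97 in SW620 and 11.20 and 11.21 in HCT116, but 6.33 and 7.58 in COLO741 and 5.69 and 5.63 in HT29. No array of the high pair came within 3 log2 units of the low pair. The HT29 arrays and the ABCB5-negative COLO741 array were below background. The gene was called lower in HT29 (limma, adjusted p = 3.94e-05) and higher in HCT116 (limma, adjusted p = 1.19e-04). APCDD1, an inhibitor of Wnt signalling at the cell surface, was 11.57 and 11.83 in SW620 and 7.87 to 8.33 elsewhere, so it was called higher (3.58 ± 0.09, limma adjusted p = 2.71e-06) in the line whose short arm median was below 0. PTPN2, a phosphatase that dampens JAK-STAT signalling, was 10.54 and 10.22 in COLO741 against 11.09 to 11.56 on the other arrays, called lower there (-0.84, limma adjusted p = 1.74e-03). PTPRM, a receptor phosphatase of cell contacts, was 11.65 and 11.73 in COLO741, 8.62 and 8.53 in HCT116, and 7.63 to 7.97 in SW620 and HT29. CABLES1, a regulator of cyclin-dependent kinases, was 12.99 and 12.74 in COLO741, 10.46 to 11.00 in SW620 and HT29 and 8.95 and 8.98 in HCT116. COLO741 was thus above the other lines without overlap in both genes. GRP, gastrin-releasing peptide, was the steadiest of the list, at 7.48 to 7.98 on all arrays and not past the F test (limma, adjusted p = 0.469).

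Membrane traffic and lipid transport had 19 of 22 listed genes expressed and 18 past the F test. In SW620 12 were called lower, and in HT29 9 were called higher. The 12 long arm members of the list read against 64.7% of the arm called lower in SW620 and 20.7% higher in HT29. The 7 short arm members read against 31.0% and 38.1% of theirs. RAB31, a small GTPase of endosomes and Golgi, was 12.93 and 12.89 in HCT116, 9.44 and 9.80 in SW620, 8.68 and 9.97 in COLO741 and 7.56 and 7.24 in HT29. The HT29 value of 7.24 was below background. The lines did not overlap except SW620 and COLO741, and limma gave 4.13 ± 0.28 in HCT116 (adjusted p = 1.00e-04) and -3.22 ± 0.28 in HT29 (adjusted p = 1.91e-04). RAB27B, a GTPase of secretory vesicles, was highest in HT29, at 10.86 and 10.68, and lowest in SW620, at 6.64 and 6.61, below background. COLO741 at 8.32 and 9.25 and HCT116 at 8.36 and 8.45 lay between them. ATP8B1, a phospholipid flippase of the apical membrane of epithelia, was 6.70 and 7.07 in COLO741, below background, and 10.34 to 12.26 in the other lines (limma, adjusted p = 9.82e-07). MYO5B, a motor of recycling endosomes named here after its values were seen, had the same order. It was 6.93 and 7.15 in COLO741, below background, and 9.39 to 10.83 elsewhere. NPC1, also named after its values were seen, was opposite, with 13.04 and 12.98 in COLO741 and 10.98 to 11.38 elsewhere. NAPG, which recycles SNARE complexes after membrane fusion, stayed between 11.54 and 11.96 on all arrays.

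Of mitochondria and metabolism, 16 of 20 listed genes were members and 15 passed the F test, with 10 called lower in SW620, a share near that of the long arm, and 8 called higher in HT29. LIPG, a secreted lipase of lipoprotein phospholipids, was 11.28 and 11.54 in HT29, 7.88 and 7.83 in HCT116 and 6.90 to 7.02 in COLO741 and SW620, where the COLO741 and SW620 arrays were below background. It entered the set through HT29 alone, so its height there follows from the choice of members. ACAA2, a thiolase of mitochondrial beta oxidation, was lowest in HCT116 at 8.74 and 8.57, against 9.74 to 10.62 elsewhere (-1.69 ± 0.09, limma adjusted p = 3.88e-05), although the HCT116 long arm median was above 0. On the short arm, IMPA2, an inositol monophosphatase, and LPIN2, a phosphatidate phosphatase, had the same highest and lowest line. IMPA2 was 10.54 and 10.44 in HT29 and 8.58 and 8.69 in HCT116, with 9.36 to 9.70 between them. LPIN2 was 10.55 and 10.56 in HT29 and 8.77 and 8.72 in HCT116, with 9.51 to 9.85 between them. In both genes no array of HT29 or HCT116 overlapped another line, and limma called each higher in HT29 (1.27 and 1.18) and lower in HCT116 (-1.20 and -1.23). PRELID3A, of a family of mitochondrial lipid carriers, was 8.13 to 8.51 on all arrays.

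Chromatin and transcription was the largest list, with 29 of 37 listed genes expressed, 24 of them on the long arm, whose shares are given above, and 26 past the F test. In SW620, 21 were called lower and 1 higher, with a median of -0.39, and in HCT116, 15 were called higher and 4 lower, with a median of 0.24. SMAD2, the TGF-beta signal transducer, was 10.59 and 10.87 in SW620, 11.10 and 11.14 in HT29, 11.41 and 11.42 in HCT116 and 11.78 and 11.64 in COLO741, with no overlap between lines. It was called lower in SW620 by limma (-0.69 ± 0.09, adjusted p = 1.52e-03) and is named here after its values were seen. ZNF532, a zinc finger protein, was the 1 called higher in SW620, at 9.94 and 9.87. But this rests on COLO741, which was far below the rest at 7.46 and 7.32, both below background. Without COLO741 the SW620 difference was 0.17 (limma, adjusted p = 0.248). ZNF407, another zinc finger protein, was the steadiest, at 7.97 to 8.24.

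Cell division and centrosome had 15 of 18 listed genes expressed and 11 past the F test, a share near that of genes of other chromosomes at the cutoff. HCT116 had 8 called higher and 0 lower, with a median of 0.29, and HT29 had 9 called lower and 2 higher, with a median of -0.36. PARD6G, a scaffold of the cell polarity complex rather than of the spindle, had the widest range: 9.51 and 9.52 in HCT116, 8.92 and 8.44 in COLO741, 7.39 and 7.25 in SW620 and 6.75 and 6.58 in HT29. All lines were apart from each other in that gene, though SW620 and HT29 were below background. TUBB6, a beta tubulin of the short arm, was 11.78 and 11.74 in HCT116 and 9.90 to 10.53 elsewhere (1.57 ± 0.09, limma adjusted p = 4.57e-05), again against the direction of its arm's median in that line. SPIRE1, an actin nucleator, stood out in HT29, with 7.69 and 8.67 against 10.55 to 10.82 elsewhere (-2.50 ± 0.20, limma adjusted p = 1.37e-04). MYL12A, a myosin regulatory light chain, ranged only from 9.15 to 9.50.

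RNA processing and translation had 15 of 17 listed genes expressed and 12 past the F test, likewise near that share, with 8 called lower in SW620 and 8 called higher in HCT116. THOC1, of the THO complex that couples transcription to mRNA export, was 11.51 and 11.42 in HT29, 11.23 and 11.37 in SW620, 10.88 and 10.84 in COLO741 and 10.41 and 10.38 in HCT116. No lines overlapped, and HCT116 was called lower by limma (-0.81 ± 0.08, adjusted p = 3.49e-04). Of ubiquitin, proteasome and protein quality, 16 of 19 were expressed and 15 passed the F test. SERPINB5, maspin, a serpin that does not act on the proteasome, had the widest measured range of all members: 11.27 and 11.05 in HT29, 9.67 and 9.68 in HCT116, 5.47 and 6.57 in SW620 and 4.94 and 4.73 in COLO741. The SW620 and COLO741 arrays were below background, so the range is no exact value. The gene is among the 5 that can fall below the cutoff when 1 line is left out. It needs both HT29 and HCT116 to reach it, so its height there follows from the choice of members. PSMG2, a proteasome assembly chaperone of the short arm, was between 12.95 and 13.46 on all arrays. Outside the lists, MAPK4, an atypical MAP kinase, was 12.28 and 11.78 in COLO741 and 7.24 to 7.83 elsewhere (4.49 ± 0.12, limma adjusted p = 9.49e-07). In that gene both SW620 arrays and the ABCB5-positive HT29 array were below background.

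**Figure D4:**
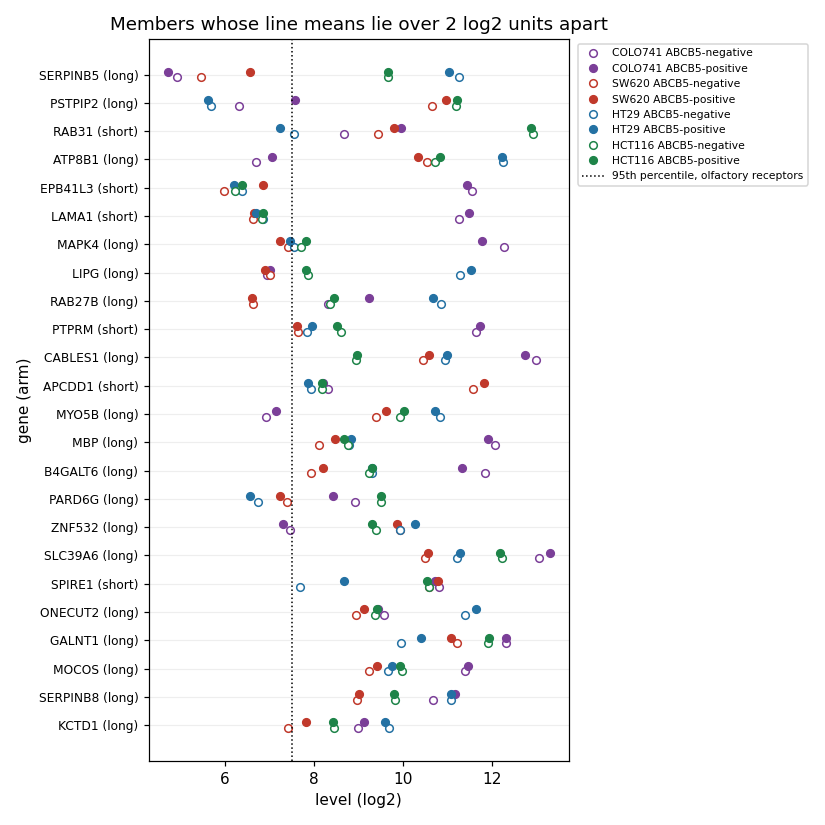
Log2 level on each array for the 24 members whose line means lie over 2 log2 units apart, ordered by that range; colours are lines, open and filled circles the ABCB5-negative and ABCB5-positive arrays, and the dotted line is the level of 7.51 below which 95% of olfactory receptor probe sets lay. The highest line differs from gene to gene: COLO741 for EPB41L3, LAMA1 and MAPK4, SW620 for APCDD1, HT29 for SERPINB5 and LIPG, HCT116 for RAB31 and PSTPIP2.

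Such wide ranges were not the rule. The range of line means had a median of 0.97 on the long arm and 0.70 on the short arm; it was over 2 in 18 long arm and 6 short arm members, and under 0.5 in 19 and 14. SW620 was the lowest of the lines in 62 of 116 long arm members, HT29 in 31, COLO741 in 15 and HCT116 in 8. HCT116 was the highest in 49, COLO741 in 39, HT29 in 24 and SW620 in 4. On the short arm HCT116 was lowest most often, in 16 of 42, and COLO741 highest in 18. The plot of members in chromosome order shows these small shifts in most genes and a few far points in each line.

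The steadiest members over the 8 arrays were, on the long arm, CELF4, an RNA-binding regulator of splicing best known from neurons, at 8.17 to 8.38, MIR187, a microRNA gene, at 8.08 to 8.35, and ZNF407. On the short arm they were PPP4R1, a regulatory subunit of protein phosphatase 4, at 11.49 to 11.80, MYL12A and PRELID3A. None of these 6 passed the F test by limma, with adjusted p from 0.134 for PPP4R1 to 0.700 for CELF4, which does not show that they are equal in the lines. Chosen for their small range, from 0.21 log2 units for CELF4 to 0.37 for PRELID3A, they do not measure the variation between arrays in general. CELF4, MIR187 and ZNF407 were also dim, with means of 8.29, 8.23 and 8.11 against a background level of 7.51. How much of their signal is background was not tested.

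The study was made to compare ABCB5-positive with ABCB5-negative cells, and within the lines this comparison called no member. With the cell line as a block, limma called 0 of 158 members and 0% of all genes tested, with a lowest adjusted p of 0.898 among the members. At an unadjusted p under 0.05 stood 2 of 42 short arm members, NDC80 and METTL4, and 0 of 116 long arm members, against 4.40% of all genes tested. NDC80, a kinetochore gene, was 0.68, 0.41, 0.34 and 0.07 higher in the ABCB5-positive arrays of COLO741, SW620, HT29 and HCT116, a mean of 0.37 ± 0.25 (SD, n = 4 lines; limma, unadjusted p = 0.0093, adjusted p = 0.898). METTL4, a methyltransferase gene beside it on the chromosome, differed by 0.56, 0.40, 0.21 and 0.00 in the same order, a mean of 0.29 ± 0.24. Both differences were largest in COLO741 and near 0 in HCT116. On the long arm PIK3C3, the class III phosphoinositide kinase of autophagy, measured -0.16, -0.09, -0.17 and -0.13, a mean of -0.14 ± 0.04 (limma, adjusted p = 0.898), and PARD6G had a mean of -0.20 ± 0.21.

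The median of ABCB5-positive minus ABCB5-negative was 0.01 on the short arm, with 22 of 42 members above 0, and -0.03 on the long arm, with 38 of 116 above 0 (32.8%; all genes tested 48.0%, with a median of -0.005). By line the long arm read -0.15 in COLO741, -0.03 in HT29, -0.01 in HCT116 and 0.07 in SW620, so the long arm value came from COLO741, and without that line it was 0.02. In COLO741, 29 of 116 long arm members were above 0, and its median over genes of other chromosomes was -0.03. In SW620 the median over genes of other chromosomes was 0.03. The COLO741 differences were largest in the 10 genes next to the centromere, at -0.26, and were below 0 in all 11 long arm stretches, while the first 2 short arm stretches read 0.12 and 0.14. With 1 array per population in a line, none of these single-line values has a replicate.

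**Figure D5:**
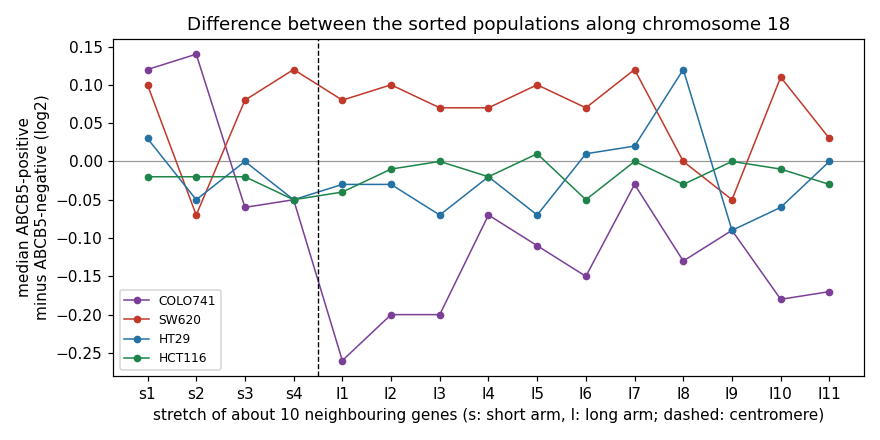
Median log2 difference, ABCB5-positive minus ABCB5-negative, over stretches of about 10 neighbouring members from the tip of the short arm (s1) to the tip of the long arm (l11), 1 line per cell line; the dashed line is the centromere. COLO741 is below 0 in all long arm stretches (-0.26 to -0.03), SW620 is above 0 in most, and HCT116 stays within 0.05 of 0.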

How the data were processed

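Gene expression was measured in 8 sorted populations of 4 lines. The authors deposited log2 values per probe set, made with Affymetrix Expression Console, per the submitters' processing notes. For its version, background correction and normalization, nothing is given in the sources used here. The log2 scale was read from the range of 2.99 to 15.24. No further normalization was applied.

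Of 33297 probe sets, 19460 named 1 gene of the platform annotation, 1754 named several and 12083 were not listed; 19429 were brought up to date by gene identifier with RefSeq GRCh38.p14, which also gave gene order. The arm boundary was set at the largest gap between neighbouring chromosome 18 genes. Of 18418 named genes, 16910 with a mean of at least 5.74, the median of 357 olfactory receptor probe sets, were tested. The members, role lists and tests were chosen with earlier results of these data known.

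Lines were tested in R 4.3.3 with limma 3.58.1, with sorted population as covariate, by an F test and by each line against the mean of the other 3; populations were compared with cell line as block. Tests were two-sided, with Benjamini-Hochberg adjustment at 0.05 over all genes tested and 3 residual degrees of freedom, to which moderation added 3.44. Pairing comes from the sample labels, where each line has both populations; deviations of the 2 arrays of a line correlated at 0.932 to 0.963 across genes. Medians over members have no test. The fits were tested on simulated data.

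Genes named are, per line and arm, up to 2 members with the largest called difference in each direction; per arm, the 3 members with the smallest range over arrays and the 2 with the smallest unadjusted p between populations; per role list, the members with the widest and narrowest range of line means; the 2 genes on either side of the cutoff; and ABCB5. Promoters are those of the 2 members with the widest and the 2 with the narrowest range of line means that have a promoter entry. Alternatives were other level cutoffs, probe set rules, centring, low-value filters, models, and leaving out arrays or lines. The number of arrays limits the precision.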

Additional observations from a re-analysis of the deposited data

Results flagged for a closer look

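In 8 of the 41 sets of 4 line values looked at, 1 line stood apart from the other 3 by a share of the whole range above Dixon's 95% critical value for 4 values. Chance flags about 1 set in 20, but most sets were genes named because 1 line differed from the rest, so the number of flags shows nothing beyond that choice. COLO741 was the line apart, and the highest, for EPB41L3 (gap over range 0.978), LAMA1 (0.959), MAPK4 (0.906) and MBP (0.861). SW620 was apart and highest for APCDD1 (0.901), HT29 apart and lowest for SPIRE1 (0.919), and HCT116 apart and highest for EMILIN2 (0.975), where the whole range was 0.44 log2 units. Among the arm medians between sorted populations, SW620 was apart and highest on the short arm (0.877), at 0.075 against -0.037 to -0.023 in the other lines. Genes of other chromosomes at the cutoff also had their highest median in SW620, at 0.029, so part of the value is not particular to the arm.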

How the results depend on the processing

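The SW620 long arm median, its short arm minus long arm difference and, where it was recomputed, the COLO741 long arm median moved by less than their arrays differed under every setting that kept all arrays or left out COLO741. The other medians and differences each moved under at least 1 setting by more than the spread of the 2 arrays of a line, which is small, and most kept their sign. With a cutoff of 8.5 the COLO741 short arm median was 0.124 and its short arm minus long arm difference -0.009, the HT29 short arm, long arm and difference were 0.215, -0.245 and 0.460, and the HCT116 long arm and difference were 0.286 and -0.434. With arrays centred on genes off chromosome 18, the short arm medians were 0.230 in COLO741, -0.232 in SW620 and -0.116 in HCT116, and the HCT116 long arm median was 0.274; the mean of all probe sets of a gene gave 0.243 there. Without COLO741 the short arm medians were 0.214 in HT29, -0.086 in SW620 and -0.107 in HCT116, the long arm medians 0.017 in HT29 and 0.350 in HCT116, and the differences 0.197 and -0.458. Means over members gave 0.360 and a difference of 0.215 in COLO741, -0.109 for the short arm, -0.006 for the long arm and -0.104 for their difference in HT29, and -0.127 and 0.256 for the HCT116 arms. In settings added after the data were seen, members that reach the cutoff without any 1 line gave 0.174 for the COLO741 short arm and 0.191, -0.125 and 0.316 for the HT29 arms and their difference, and protein-coding members gave 0.174, 0.191 and a HT29 difference of 0.275.

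Leaving out 1 array at a time, short arm medians ran from 0.155 to 0.197 in COLO741, 0.148 to 0.204 in HT29, -0.200 to -0.134 in SW620 and -0.187 to -0.130 in HCT116. Long arm medians ran from -0.125 to -0.057 in HT29 and 0.229 to 0.259 in HCT116, and the differences from 0.006 to 0.129 in COLO741, 0.248 to 0.299 in HT29 and -0.434 to -0.365 in HCT116. Called members ran from 10 to 20 on the short arm in SW620, 14 to 26 on the short arm in HT29, 50 to 87 on the long arm in SW620 and 41 to 78 on the long arm in HCT116. Of the 87 long arm calls of SW620, 45 were kept in all 8 such fits, and of the 74 of HCT116, 36. Without COLO741, LAMA1 in HCT116 turned from -1.43 to 0.13 against the other lines (limma, adjusted p = 0.233), and EPB41L3 in HCT116, LAMA1 in SW620 and ZNF532 in SW620 lost their call at -0.05, -0.17 and 0.17, since the mean they are set against no longer holds COLO741. Between the sorted populations 0 members were called under each of the 10 alternatives, and between 1 and 6 had an unadjusted p under 0.05. Without the replicate block, 1 member rather than 2 had an unadjusted p under 0.05. The arm medians of 0.006 and -0.028 cannot change in that setting, since each line has 1 array of each population. The arm medians between populations stayed between -0.062 and 0.028. With 2 arrays per line, small differences of dim genes are limited by background.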

Other observations

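Some genes near each other on the long arm were called in the same direction. The genes in this paragraph were chosen after their values were seen. On that arm 64.7% of members were called lower in SW620, 49.1% higher in HCT116 and 34.5% higher in COLO741. The zinc finger genes ZNF397, ZNF271P and ZNF24 were called lower in SW620 at -0.39, -0.43 and -0.79 and higher in HCT116 at 0.57, 0.41 and 0.39. Next to RPRD1A, a regulator of RNA polymerase II, lay SLC39A6, a zinc importer, ELP2, a subunit of the Elongator complex, and MOCOS, a molybdenum cofactor sulfurase. These 3 were called higher in COLO741 at 1.85, 0.76 and 1.76, and lower in SW620 at -1.68, -0.58 and -1.03. Near the far end of the arm SOCS6, RTTN and NFATC1 were called lower in SW620 (-1.32, -0.62 and -0.83) and higher in HCT116 (1.25, 1.18 and 1.20). RTTN and SOCS6 lie side by side, but NFATC1 is farther along. Members between them went either way in HCT116, such as TIMM21 at 0.87 and MBP at -0.98.

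ATP8B1 and the gene antisense to it did not move together. ATP8B1 was at 6.70 and 7.07 in COLO741, while ATP8B1-AS1 was at 9.13 and 8.98 there, 8.60 and 8.79 in SW620, 8.37 and 8.45 in HT29 and 9.76 and 9.58 in HCT116. HT29, the highest line for ATP8B1 at 12.26 and 12.22, was the lowest for the antisense gene. Some members known from restricted tissues had narrow ranges: RAX, a homeobox gene of the eye, lay at 8.12 to 8.56, SALL3, a developmental zinc finger gene, at 8.52 to 9.01 and SKOR2, a corepressor gene of the cerebellum, at 7.71 to 8.22. RAX and SALL3 still passed the F test of limma (adjusted p = 0.0252 and 0.021) and were called lower in SW620, at -0.30 and -0.34.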
